A study of Mus musculus with 4 samples.

Results

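The metallothionein genes Mt1, Mt2 and Mt3 were followed in single cells of the mouse medial ganglionic eminence (MGE), the ventral forebrain germinal zone that makes globus pallidus projection neurons and cortical interneurons. They were taken by their symbols, 3 of the 32285 genes counted, and the fourth gene of the cluster, Mt4, was read beside them. They were chosen by their measured levels in classes of these cells and by bins of total UMIs in the 4 libraries. Levels between classes are therefore given as a description without a test. MGE of e14.5 embryos was dissociated for 10x Genomics single-cell RNA-seq in 2 St18 (-/-) libraries (null) and 2 libraries of wildtype embryos (WT), all on a C57/BL6 ICR mix. Heterozygous parents gave both genotypes, and each library is a pool of MGE of one genotype whose number of embryos is not given. The null allele lacks internal coding exons removed in the whole animal by a germline Cre line, E2a-Cre. St18 is a zinc finger transcription factor of the Myt1 family, and the purpose of the experiment was to compare cell identities in the MGE with and without it.

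Metallothioneins are very small cytoplasmic proteins rich in cysteine that bind zinc and copper. Transcription of Mt1 and Mt2 rises with free zinc through the metal-sensing factor MTF-1, which binds metal response elements (MREs) upstream of them, and both genes also respond to glucocorticoids and oxidative stress in many tissues. Mt3 is the form most typical of the nervous system and is far less responsive to metals, and Mt4 belongs to stratified squamous epithelia. In adult brain Mt1 and Mt2 are mainly genes of glia.

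All 4 genes lie head to tail on the plus strand of mouse chromosome 8 (GRCm38) within 43131 bases. Mt4 spans 94137197 to 94139031, Mt3 94152607 to 94154146, Mt2 94172664 to 94173568 and Mt1 94179082 to 94180327. No other annotated gene lies wholly in the gaps of 13575, 18517 and 5513 bases between them. Each has 3 exons, and the best-supported spliced transcripts of Mt1, Mt2 and Mt3 have 549, 511 and 536 bases, so that their levels per transcript stand on nearly one length. Mt2 overlaps an antisense gene, Gm45774, and shares 3 runs of 31 bases with transcripts of Pip5k1a. Its counts are less certain for that reason, since use of strand in counting is not given in the sources used here, while Mt1 and Mt3 share no such run and overlap no gene.

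The upstream sequences of the 3 genes are shown because the MRE letters, by which MTF-1 is known to reach Mt1 and Mt2, are spread unequally over them. The sequences are those of RefSeq on GRCm38.p6, on the genes' strand and ending at the base before the first annotated start. Capitals mark every match to the MRE core TGCACNC or TGCGCNC on either strand.
Mt1, chr8:94178839-94179081: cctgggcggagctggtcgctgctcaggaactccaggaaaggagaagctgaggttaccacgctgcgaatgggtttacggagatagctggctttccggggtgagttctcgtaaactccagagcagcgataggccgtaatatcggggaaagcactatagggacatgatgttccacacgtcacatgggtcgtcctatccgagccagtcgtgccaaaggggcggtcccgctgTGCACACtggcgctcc
Mt2, chr8:94172368-94172617: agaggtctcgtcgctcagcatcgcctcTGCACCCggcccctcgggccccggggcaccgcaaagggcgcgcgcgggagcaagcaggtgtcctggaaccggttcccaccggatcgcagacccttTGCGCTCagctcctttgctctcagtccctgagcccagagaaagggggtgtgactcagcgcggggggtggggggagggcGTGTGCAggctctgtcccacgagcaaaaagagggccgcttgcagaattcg
Mt3, chr8:94152357-94152606: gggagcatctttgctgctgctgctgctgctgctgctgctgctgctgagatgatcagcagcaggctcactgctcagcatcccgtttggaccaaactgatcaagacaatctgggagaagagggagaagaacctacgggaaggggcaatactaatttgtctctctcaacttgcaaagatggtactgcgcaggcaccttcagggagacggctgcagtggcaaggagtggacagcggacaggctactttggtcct
The Mt1 stretch held 1 match, TGCACAC, 23 bases before the RefSeq start. In Mt2 there were 3, TGCACCC at 223 bases, TGCGCTC at 128 bases and, on the opposite strand, GTGTGCA at 50 bases before the start. The Mt3 stretch held 0. Of 32851 RefSeq promoters of 27025 genes, read over 250 bases before the start (the Mt1 stretch has 243), 21.4% held at least 1 match, 5.17% at least 2 and 1.26% at least 3. These counts hold for the stretch before the first start only. In the 50 bases after the RefSeq start there were 2 further matches in Mt1, 1 in Mt2 and 1 in Mt3, and other annotated transcripts start 129 to 196 bases after the first. A match is a run of letters and not a measured binding site.

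The 4 libraries held 70991150 to 92984713 UMIs (unique molecular identifiers, 1 for each RNA molecule counted). After asking for at least 2000 UMIs, 200 genes and at most 10% mitochondrial UMIs, 21231 cells were kept, 4456 to 7217 a library, and at most 12 cell barcodes were shared by a pair of libraries. Clustering gave 9207 progenitors, 11508 neurons, 98 microglia-like, 164 erythroid-like, 59 pallial neuron-like and 35 oligodendrocyte precursor-like cells, and 160 cells of a cluster left unnamed. The 6 markers of MGE lineage summed to 1684 to 1973 CPM (counts of a gene per 1000000 UMIs) in progenitors and 1805 to 2068 CPM in neurons. St18 in neurons was 25.1 and 75.4 CPM in null replicates 1 and 2 and 43.7 and 56.6 CPM in WT replicates 1 and 2, so the library labelled null replicate 2 lay above both WT libraries, but whether these counts fall outside the deleted exons is unknown. Xist, the RNA of the inactive X chromosome, was 591 and 1461 CPM in null neurons with 4 and 1 UMIs in WT neurons, so sex of the pools differed with genotype. The null libraries were also deeper and less alike than the WT libraries, with a chi-square per degree of freedom over genes of 54.9 against 5.79.

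Before any subtraction of free RNA from outside the cells, Mt3 was the most abundant metallothionein of progenitors and of neurons. It was higher in progenitors than in neurons in every library. In progenitors Mt3 was 84.1 and 151 CPM in null replicates 1 and 2 and 138 CPM in each WT library, with a mean of 128 ± 29.8 CPM (SD, n = 4 libraries). In neurons it was 19.99 and 33.5 CPM in the null and 36.2 and 44.3 CPM in the WT libraries, with a mean of 33.5 ± 10.1 CPM. The lowest progenitor value, in null replicate 1, still lay above the highest neuron value.

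Mt1 followed with 13.6 and 19.98 CPM in null progenitors and 26.0 and 23.8 CPM in WT progenitors, a mean of 20.9 ± 5.44 CPM. Neurons held 7.81 and 11.3 CPM in the null and 18.5 and 13.7 CPM in the WT libraries, a mean of 12.8 ± 4.49 CPM. Within each library progenitors lay above neurons, but the ranges of both classes overlapped, as WT neurons reached null progenitors.

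Mt2 was the least abundant, with 8.31 and 10.7 CPM in null progenitors and 17.8 and 15.8 CPM in WT progenitors, a mean of 13.1 ± 4.40 CPM. In neurons it fell to 2.36 and 3.92 CPM in the null and 7.09 and 4.96 CPM in the WT libraries, a mean of 4.58 ± 1.98 CPM. No neuron library reached a progenitor library.

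The log2 ratio of progenitors over neurons within a library averaged 1.95 ± 0.23 for Mt3, 1.57 ± 0.22 for Mt2 and 0.73 ± 0.16 for Mt1 (SD, n = 4). Without subtraction of free RNA, the ratio of Mt3 was above that of Mt2 in every library but WT replicate 2 (1.64 against 1.67). The ratio of Mt1 was the lowest in all 4 libraries. Mt4 had 0 UMIs in all 21231 cells, which allows up to 0.033% of progenitors and 0.026% of neurons with a UMI and, in progenitors, a level up to 0.034 CPM.

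**Figure D1:**
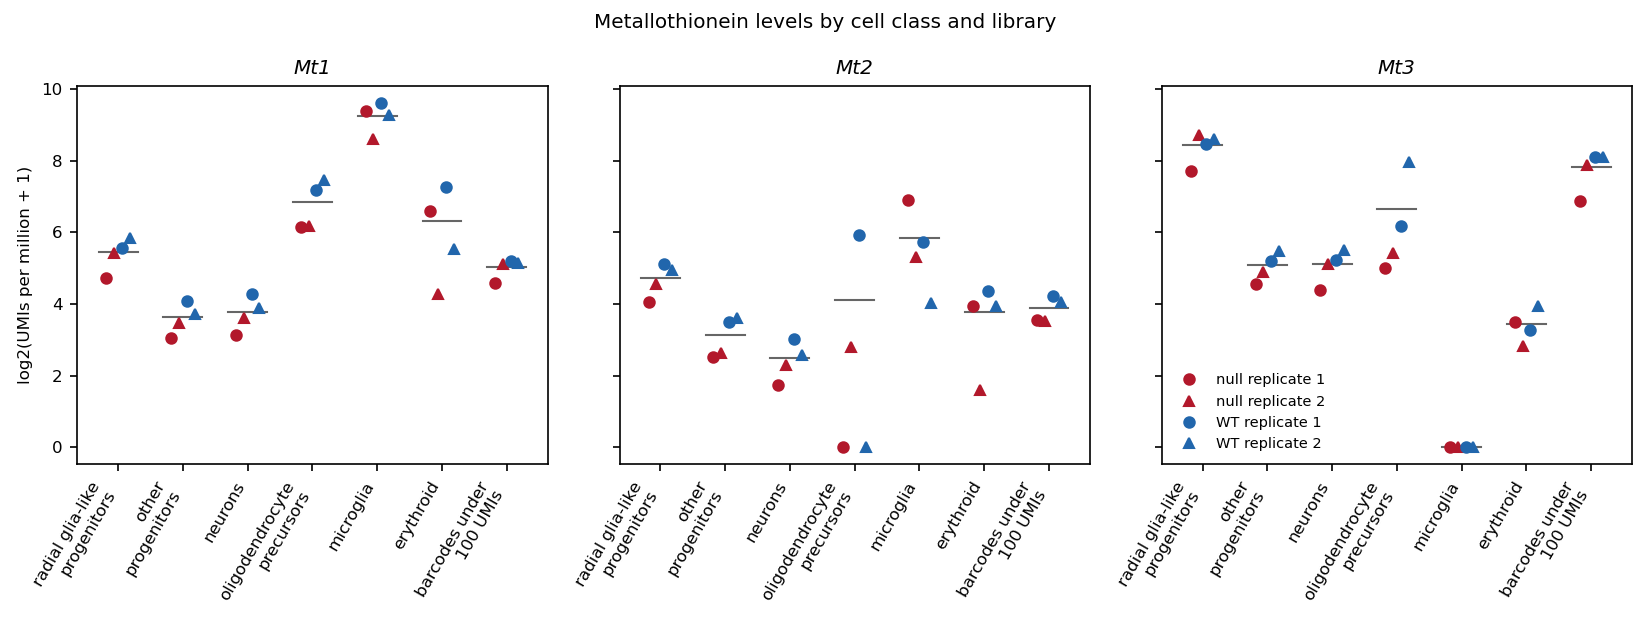
Level of Mt1, Mt2 and Mt3 as log2(CPM + 1) in each class of cells (other progenitors without cluster 8) and in droplets under 100 UMIs, with 1 point for each of the 4 libraries and a line at the mean CPM. Mt3 lies above Mt1 and Mt2 in progenitors and neurons, whereas Mt1 leads in microglia-like cells, where Mt3 had 0 UMIs.

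Shares of cells with a UMI differed between the members. Among progenitors 29.5 to 40.7% over the libraries had a UMI of Mt3, 10.1 to 15.6% of Mt1 and 6.10 to 10.2% of Mt2. Among neurons the shares were 10.8 to 20.8%, 4.14 to 7.54% and 1.32 to 3.17%. When every cell was thinned to 2000 UMIs, so that deeper cells did not count for more, the progenitor shares were 11.9 to 18.5% for Mt3, 3.10 to 4.39% for Mt1 and 1.59 to 2.88% for Mt2. Neurons then held 4.38 to 8.73%, 1.45 to 3.53% and 0.376 to 1.44%. The thinned ranges of progenitors and neurons overlapped for Mt1 and did not for Mt2 and Mt3.

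Droplets without a cell also held these RNAs. In droplets with fewer than 100 UMIs, which hold no cell, Mt3 was 115 and 235 CPM in the null and 273 and 275 CPM in the WT libraries, above the progenitors of the same library in all 4. Mt1 was 23.2 to 35.5 CPM there and Mt2 10.4 to 17.7 CPM. Relative to the kept cells, droplets held 2.80 times as much Mt3, 1.60 times as much Mt1 and 1.497 times as much Mt2. Genes were ranked by the log2 ratio of droplets over cells, with 1 added to each CPM. Of 8573 genes compared, 0.0467% ranked above Mt3, 0.805% above Mt1 and 1.96% above Mt2. The median gene was lower in droplets by 0.28 on that log2 scale. Free RNA was also subtracted at an assumed 10% of the UMIs of cells. That moved the progenitor over neuron log2 ratio from 1.95 to 3.28 for Mt3, from 1.57 to 1.98 for Mt2 and from 0.73 to 0.92 for Mt1. The 10% was not measured, and a smaller share would move the ratios less. Microglia-like cells, with 0 Mt3 UMIs and a limit of 3.95 CPM, lay below 10% of every droplet level of Mt3. So did pallial neuron-like cells (7.36 CPM) and erythroid-like cells (9.76 CPM) with libraries pooled.

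Microglia-like cells, the resident macrophages of brain, held the highest Mt1 of all classes. Mt1 was 667 and 386 CPM in the null and 777 and 616 CPM in the WT libraries, and 70 of the 98 cells, 71.4% (exact 95% interval 61.4 to 80.1%), had a UMI, with up to 32 in 1 cell. Every library of these cells lay above every library of progenitors. Mt2 was 118 and 38.6 CPM in the null and 52.3 and 15.4 CPM in the WT libraries, from 19 of 98 cells. Mt3 had 0 UMIs in the same 98 cells, which allows up to 3.06% of cells and 3.95 CPM. Since free RNA enters every class, these values are also a limit on the Mt3 that it gave in microglia-like cells. Whether free RNA makes the same share of UMIs in every class was not tested.

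Erythroid-like cells, precursors of red blood cells, had Mt1 at 94.98 and 18.5 CPM in the null and 153 and 45.8 CPM in the WT libraries. Of 164 such cells 30 held an Mt1 UMI, with up to 18 in 1 cell. Mt3 was 9.76 CPM over the libraries together, in 17 of 164 cells (10.4%), and Mt2 was 12.5 CPM. The genotypes overlapped for Mt1 in these cells.

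Oligodendrocyte precursor-like cells, the glial precursors marked by Olig1, Pdgfra and Sox10, were 35 in all. Mt1 was 70.1 and 71.8 CPM in the null and 143 and 175 CPM in the WT libraries, with a UMI in 15 of 35 cells, and Mt3 was 31.1, 41.9, 71.5 and 250 CPM in the same order, in 12 of 35 cells with up to 9 UMIs in 1 cell. The highest of these rests on 10 UMIs in 4 cells. Each library gave only 4 to 12 of these cells. Pallial neuron-like cells, excitatory neurons of dorsal origin, had low levels of both, 4.41 CPM of Mt1 and 7.36 CPM of Mt3 over 59 cells.

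The proportion of one member to another differed with the class. Progenitors held 5.28 to 7.58 UMIs of Mt3 for each UMI of Mt1, neurons 1.95 to 3.24, oligodendrocyte precursor-like cells 0.444 to 1.43 and erythroid-like cells 0.0571 to 0.333. Droplets with fewer than 100 UMIs stood at 4.98 to 8.06, a range that overlapped that of progenitors and no other of these classes.

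Among progenitors Mt3 was highest in the radial glia-like cells, the stem cells that line the ventricle, and in cluster 8. Cluster 8 was set apart after seeing the data and is described below. Cluster 2 (1677 cells) and cluster 19 (355 cells), which held markers such as Slc1a3, Fabp7 and Hes1, were called radial glia-like, and the 3 members had been kept out of the genes used for clustering. Their Mt3 was 207 and 422 CPM in the null and 351 and 392 CPM in the WT libraries. In the other progenitor clusters, cluster 8 apart, it was 22.6 and 28.9 CPM in the null and 35.9 and 43.7 CPM in the WT libraries, which is the range of neurons.

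Mt1 and Mt2 showed the same order within progenitors, cluster 8 again apart. Mt1 was 25.3, 41.97, 46.4 and 56.8 CPM in radial glia-like cells of null replicates 1 and 2 and WT replicates 1 and 2, against 7.25, 10.1, 15.9 and 12.1 CPM in the other progenitors. Mt2 was 15.6, 22.6, 33.4 and 30.04 CPM against 4.71, 5.23, 10.3 and 11.1 CPM. For all 3 members the lowest radial glia-like library lay above the highest of the other progenitors without cluster 8.

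Cluster 19 stood highest of all neural clusters. Its leading genes were Bcan, a brain proteoglycan, Sulf1, Rlbp1, Fabp7, a fatty acid binding protein of radial glia, Aldh1l1, an astrocyte enzyme, the glutamate transporter Slc1a3, and Sparcl1. Mt3 was 619 CPM over its cells (464 to 729 CPM over the libraries), Mt1 104 CPM (62.8 to 160 CPM) and Mt2 54.4 CPM. Cluster 2, led by Ptx3, Rgcc, Hmga2 and the Notch target Hes1, had 273 CPM of Mt3 (177 to 365 CPM), 28.7 CPM of Mt1 and 18.5 CPM of Mt2, so the libraries of both clusters did not overlap for Mt3.

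Cluster 8, with 283 CPM of Mt3, 38.0 CPM of Mt1 and 20.03 CPM of Mt2, held 1106 progenitors of low depth, with a median of 2752 UMIs. It was led by Pcp4, Mt3 itself, Dbi and Fabp7. It lay above radial glia-like cluster 2 for each member, but only 1 radial glia marker passed in it, so it was not called radial glia-like. Droplets under 100 UMIs held 224, 31.8 and 13.2 CPM of Mt3, Mt1 and Mt2 with libraries pooled. The part of free RNA in cluster 8 was not tested. The remaining progenitor clusters lay between 22.6 and 54.8 CPM of Mt3.

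Neuron clusters spanned a narrow range of Mt3, from 16.8 CPM in cluster 14 to 71.3 CPM in cluster 15, whose cells had a median of only 2614.5 UMIs, and the median cluster stood at 32.9 CPM. Mt1 spread more widely, from 2.37 CPM in cluster 16 to 31.6 CPM in cluster 18, again a cluster of low depth with a median of 2444.5 UMIs. Of clusters with ordinary depth, cluster 1 had the highest Mt1, 25.5 CPM (exact 95% interval 22.7 to 28.6 CPM, 15.6 to 39.6 CPM over the libraries). Its leading genes were St18 itself, at 142 CPM, Nav2, Tiam2, a Rac activator, the neuropeptide gene Npy and Prox1. Neuron cluster 17 held more St18, 156 CPM, but only 6.61 CPM of Mt1. Cluster 14, led by Ebf1, Crabp1 and Isl1, genes of striatal-type neurons, had 2.91 CPM of Mt1. Mt2 ran from 0.762 CPM in cluster 17 to 15.8 CPM in cluster 18.

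**Figure D2:**
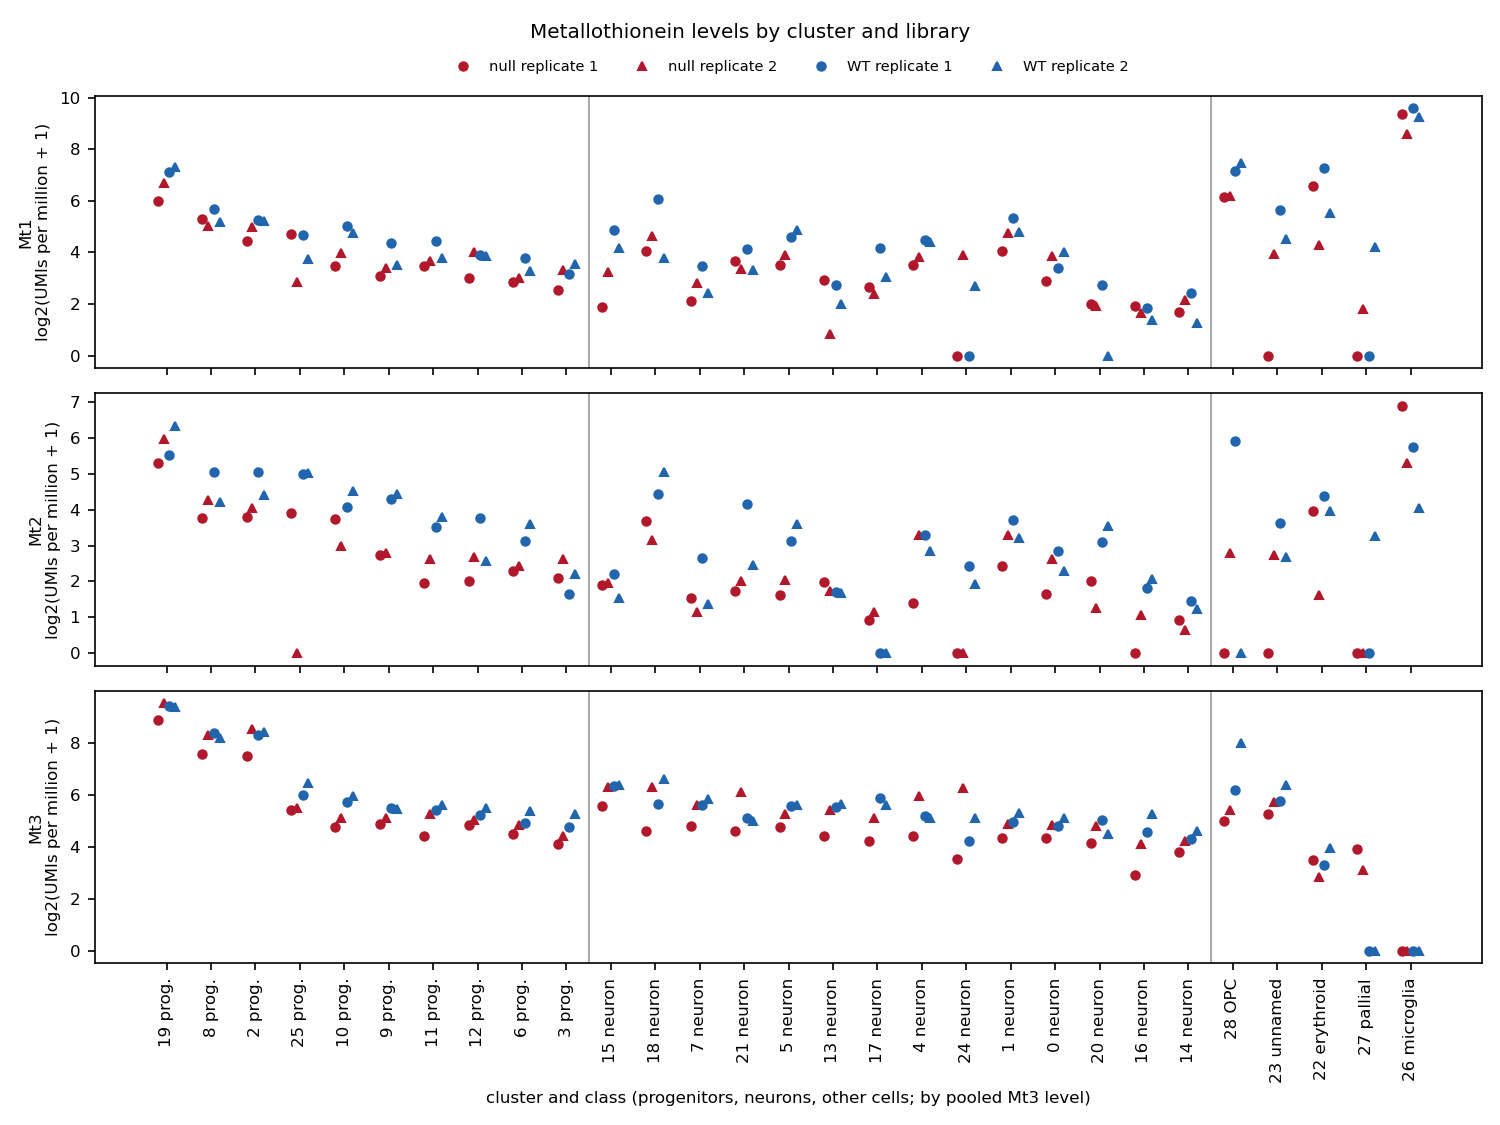
Level of Mt1, Mt2 and Mt3 as log2(CPM + 1) in each of the 29 clusters, with 1 point per library and the clusters of progenitors, neurons and other cells (OPC, oligodendrocyte precursor-like) ordered by Mt3. With libraries pooled, radial glia-like clusters 19 and 2 and the low-depth cluster 8 stand at the top of Mt3 with 619, 273 and 283 CPM, and the microglia-like cluster stands at the top of Mt1 with 621 CPM.

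Genes whose level over clusters was most like that of each member were found by Pearson correlation of log2(CPM + 1) over 28 clusters of at least 50 cells, among 12165 genes. These correlations are a description, as clusters share libraries and free RNA. Mt2 was most like Mt1 (r = 0.88). After it came, for Mt1, S100a13, S100a1 and Htatip2 (each r = 0.81) and Vamp8 (r = 0.80), and for Mt2, S100a1 (r = 0.85), Ost4 (r = 0.79), S100a13 and Sdc4 (each r = 0.78). S100a1 and S100a13 make small calcium-binding proteins, and Sdc4 is a cell surface proteoglycan. For Mt3 they were Pxmp2, a peroxisomal membrane protein (r = 0.87), Ndrg2 (r = 0.81), Fabp7 (r = 0.80), Cbs, an enzyme of cysteine synthesis (r = 0.79), and Rassf10 (r = 0.78). Mt1 and Mt3 had r = -0.06 over the 28 clusters and r = 0.78 over the 24 progenitor and neuron clusters, and Mt2 and Mt3 had 0.19 and 0.75. Over those 24 clusters r with Mt1 was 0.79 for S100a13, 0.74 for S100a1, 0.54 for Htatip2 and 0.67 for Vamp8. There the genes listed for Mt2 after Mt1 had 0.79 to 0.85, and those for Mt3 had 0.81 to 0.93.

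Levels changed with the depth of the cell, so they were read in bins of total UMIs. In neurons Mt3 was 50.4 CPM in cells of 2000 to under 4000 UMIs, 31.1 CPM below 8000, 28.2 CPM below 16000 and 26.3 CPM at 16000 and above. Mt1 went from 16.1 over 13.8 and 8.76 to 5.92 CPM in the same bins, and Mt2 from 5.75 over 4.65 and 3.50 to 2.06 CPM. These pooled values mix libraries, and the null libraries gave 50 and 110 of the 174 neurons in the highest bin, against 4 and 10 from WT. Averaged over libraries Mt3 was 52.3, 32.7, 30.6 and 36.4 CPM, Mt1 16.2, 14.1, 7.60 and 7.63 CPM, and Mt2 5.65, 4.90, 3.71 and 1.94 CPM. Within a library, Mt3 fell at every step in null replicate 2 and WT replicate 2. Mt2 in WT replicate 1 did so too, but its last bin held 4 cells with 0 UMIs of Mt2, and none of the other series did. Between the lowest bin and that of 8000 to under 16000 UMIs Mt3 was lower in all 4 libraries, whereas Mt1 and Mt2 of null replicate 2 were not. The low-depth neuron clusters 15 and 18 stood at 71.3 and 59.5 CPM of Mt3. The part of clusters in these differences between neuron bins was not tested.

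Progenitors had another shape for Mt3, with 235.5 CPM in the lowest bin (175 to 278 CPM over libraries), 96.4 CPM (65.1 to 161 CPM), 102 CPM (70.4 to 132 CPM) and 167 CPM (125 to 216 CPM) in the highest. Mt1 was 34.5, 22.8, 16.5 and 21.0 CPM and Mt2 18.9, 15.9, 10.8 and 10.7 CPM. The null libraries gave 299 and 436 of the 921 progenitors in the highest bin, against 109 and 77 from WT. Averaged over libraries Mt3 was 238, 111, 110 and 175 CPM, Mt1 34.8, 24.2, 17.6 and 25.7 CPM, and Mt2 19.1, 15.8, 11.9 and 13.001 CPM. The make-up of the bins moved with these values. Cluster 8 made 54.2 to 86.7% of progenitors in the lowest bin and at most 3.90% in the highest, and the radial glia-like clusters made 6.19 to 16.7% of the lowest and 36.7 to 56.0% of the highest. Within radial glia-like cells alone Mt3 was 382, 304, 306 and 328 CPM from the lowest to the highest bin, and in other progenitors without cluster 8 it was 59.2, 38.0, 28.6 and 25.8 CPM.

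**Figure D3:**
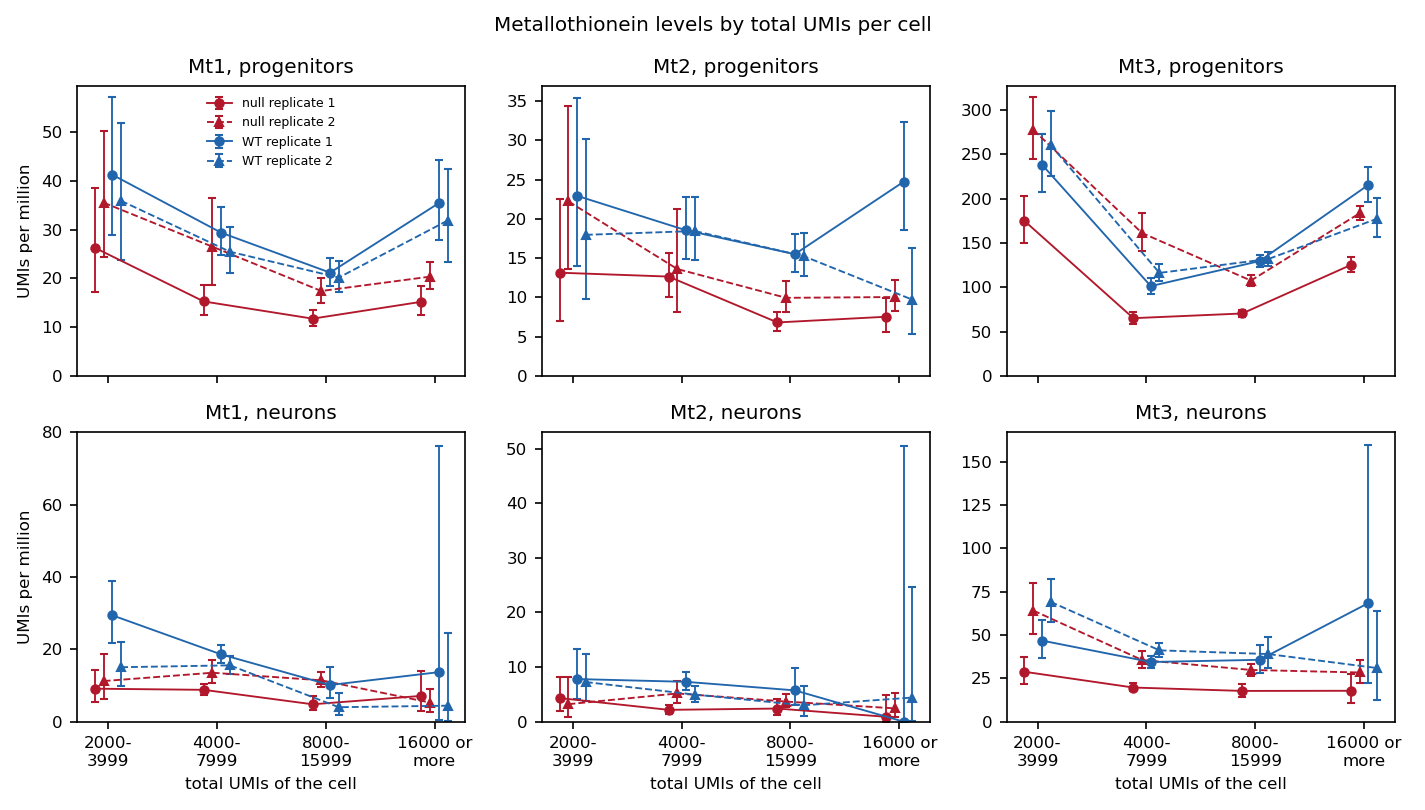
Level of Mt1, Mt2 and Mt3 in CPM by bin of total UMIs per cell in progenitors and neurons, with 1 point per library and bars for the exact 95% Poisson interval. Neurons show a fall at every step for Mt3 in null replicate 2 and WT replicate 2 while Mt3 of progenitors with libraries pooled is highest in the lowest bin (235.5 CPM) and rises again from 102 to 167 CPM between the last 2 bins.

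To ask whether loss of St18 went with other metallothionein levels, UMIs of each class were summed per library and null was compared with WT by edgeR's quasi-likelihood test over all genes, with Benjamini-Hochberg adjustment. With 2 libraries in each group the p-values measure the spread between these libraries, which may be partly technical. The members were chosen with their levels in these same libraries known, and the p-values do not allow for that choice. In progenitors Mt2 passed the test (log2 fold change -1.03, SE 0.14, adjusted p = 0.0418), at 9.49 ± 1.67 CPM in null and 16.8 ± 1.36 CPM in WT (SD, n = 2 each). Both null libraries lay below both WT libraries. The call was lost in 9 of 20 alternatives, among them without the highest doublet scores (adjusted p = 0.0564), with equal numbers of cells per cluster (0.0675) and without cluster 8 (0.0506). Over all 13811 genes tested in progenitors 99 passed, 0.717%, and 84 passed with lower levels in null, 0.608%.

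Mt1 in progenitors did not pass (log2 fold change -0.78, SE 0.15, adjusted p = 0.0676), at 16.8 ± 4.50 CPM in null and 24.9 ± 1.59 CPM in WT, although both null libraries lay below both WT libraries. That order without overlap held for 11.4% of all genes tested in progenitors, and the opposite one for 49.9%. Log2 fold changes were below 0 for all 3 members and for 50.4% of genes. Mt3 did not pass either (log2 fold change -0.44, SE 0.21, adjusted p = 0.283), at 118 ± 47.6 CPM in null and 138 ± 0.54 CPM in WT. Its groups overlapped, since the library labelled null replicate 2 was the highest of the 4.

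In neurons none of the 3 passed. Log2 fold changes were -0.91 for Mt1 (SE 0.20, adjusted p = 0.0916), -1.11 for Mt2 (SE 0.27, adjusted p = 0.116) and -0.74 for Mt3 (SE 0.20, adjusted p = 0.141). Mt1 averaged 9.53 ± 2.43 CPM in null and 16.1 ± 3.42 CPM in WT, Mt2 3.14 ± 1.11 and 6.03 ± 1.501 CPM, and Mt3 26.8 ± 9.56 and 40.2 ± 5.77 CPM (SD, n = 2 each). For each of the 3 both null libraries lay below both WT libraries, an order that 13.7% of the genes tested in neurons shared, while 41.8% had the opposite one and 50.3% had a log2 fold change below 0. Only 9 of 13670 genes passed in neurons, 0.0658%, and 5 of them were lower in null, 0.0366%. By an unadjusted p under 0.05 all 3 members were lower in null neurons, as were 9.96% of genes, and Mt1 and Mt2 in null progenitors, as were 10.9% of genes.

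The fitted values are scaled by TMM, whereas CPM is scaled by library totals. Scaled by library totals, which moved the median of all genes by 0.19 in progenitors and 0.14 in neurons, the log2 fold changes were -0.58 for Mt1, -0.83 for Mt2 and -0.23 for Mt3 in progenitors and -0.76, -0.96 and -0.59 in neurons, and Mt2 in progenitors alone passed (edgeR adjusted p = 0.0268).

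The effect of genotype was not shown to differ between the classes. In an edgeR fit with library and class as terms, the log2 effect in progenitors less that in neurons was 0.10 for Mt1 (adjusted p = 0.866), 0.06 for Mt2 (adjusted p = 0.971) and 0.26 for Mt3 (SE 0.09, adjusted p = 0.252). Over all genes 136 of 14432 passed, 0.942%. The Mt3 value depended on single libraries, at 0.40 without WT replicate 1 and 0.12 without WT replicate 2.

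The size of the differences depended on single libraries, as did calls other than that of Mt2 in progenitors. With each library left out in turn, the log2 fold change of Mt2 in progenitors ran from -1.15 to -0.91. Without null replicate 1 the log2 fold changes in progenitors were -0.58 for Mt1, -0.91 for Mt2 and -0.12 for Mt3. Without the library labelled null replicate 2, whose St18 level lay above both WT libraries, they were -1.01, -1.15 and -0.85. Mt1 and Mt2 passed in both of these fits and Mt3 in the second alone (edgeR adjusted p = 1.4e-07 for Mt3), where the lone null library was assumed to vary like the WT pair. Over all genes 4751 of 13989 passed in the first of these fits and 2118 of 13833 in the second. In neurons they were -0.69, -0.79 and -0.43 without null replicate 1 and -1.14, -1.45 and -1.10 without the library labelled null replicate 2. There Mt1 and Mt3 passed in both fits and Mt2 in the second alone, beside 3027 of 13821 genes in the first and 616 of 13710 in the second. Without WT replicate 2 Mt1 passed in both classes (edgeR adjusted p = 0.00776 and 0.000585) and Mt2 in neurons (adjusted p = 0.00122), and without WT replicate 1 Mt3 passed in neurons (adjusted p = 0.0124). Without WT replicate 2, 102 of 14367 genes passed in progenitors and 53 of 14313 in neurons, and without WT replicate 1, 124 of 14332 in neurons. In these fits the lone WT library was assumed to vary like the null pair.

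In cells with male counts alone (at least 1 Y-linked UMI and at most 1 Xist UMI), where sex no longer differed between the groups, the progenitor log2 fold changes were -0.86 for Mt1 (adjusted p = 0.0553), -1.11 for Mt2 (edgeR adjusted p = 0.0387) and -0.37 for Mt3 (adjusted p = 0.327). In neurons they were -1.15, -0.85 and -1.005, and none passed. Over all genes 106 of 13019 passed in male progenitors and 2 of 12537 in male neurons.

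Radial glia-like cells alone, a choice made after seeing the data, gave log2 fold changes of -0.84 for Mt1 (edgeR adjusted p = 0.0347), -0.97 for Mt2 (adjusted p = 0.0149) and -0.47 for Mt3 (adjusted p = 0.232), where 497 of 12084 genes passed. In the progenitors outside these clusters and cluster 8 they were -0.88, -1.28 and -0.81, and none of the 3 passed (adjusted p = 0.108, 0.0560 and 0.0748). Over all genes only 2 of 12958 passed in that part. Values of Mt1 and Mt2 were thus negative in either part of the progenitor class, and whether the parts differed was not tested.

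**Figure D4:**
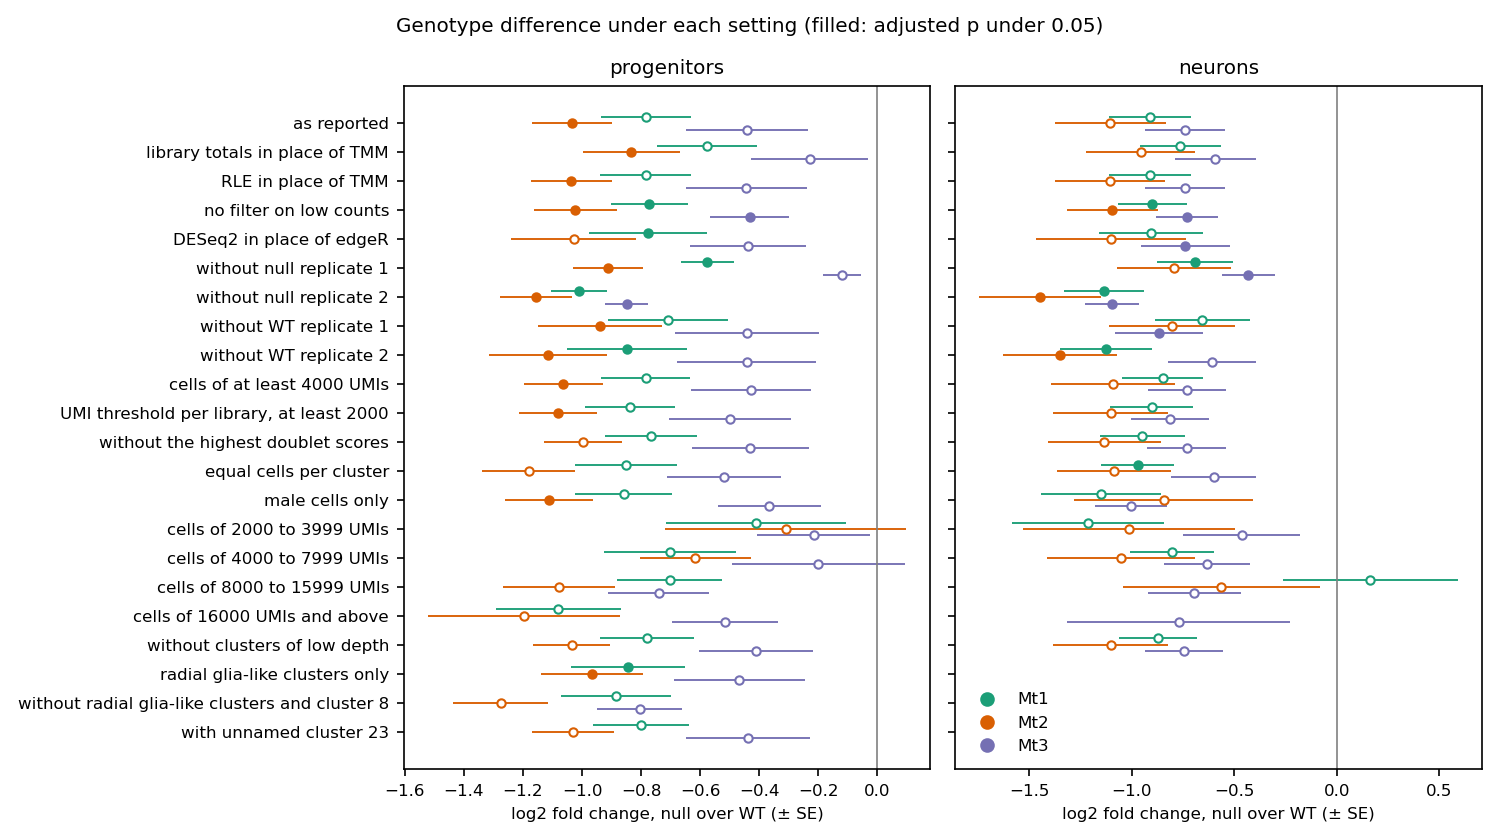
Log2 fold change of null against WT for Mt1, Mt2 and Mt3 in progenitors and neurons, as reported and under each other choice of cells, libraries or method, with bars of 1 SE. Filled points have an adjusted p under 0.05 and hollow points do not or have none given. In progenitors every value lies below 0, and Mt1 in neurons of 8000 to under 16000 UMIs, at 0.16, is the one value above 0 in neurons.

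Fold changes between the genotypes differed with the annotated length of transcripts over the whole transcriptome, and all 3 members are short. In progenitors the median log2 fold change was -0.34 over 1184 genes with transcripts of at most 1000 bases, -0.11 over 5590 genes of over 1000 and up to 3000 bases and 0.10 over 7028 longer genes. Of the genes of at most 1000 bases, 40.6% had both null libraries below both WT libraries and 4.98% passed the test with lower levels in null. In neurons the medians were -0.32, -0.10 and 0.08, and 40.4% of the short genes had both null libraries lower.

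Against these short genes, 3.21% had a lower log2 fold change than Mt2 in progenitors, 8.19% a lower one than Mt1 and 36.7% a lower one than Mt3. In neurons the shares were 1.27%, 2.79% and 7.70%. The part of transcript length in the metallothionein differences was not tested.

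**Figure D5:**
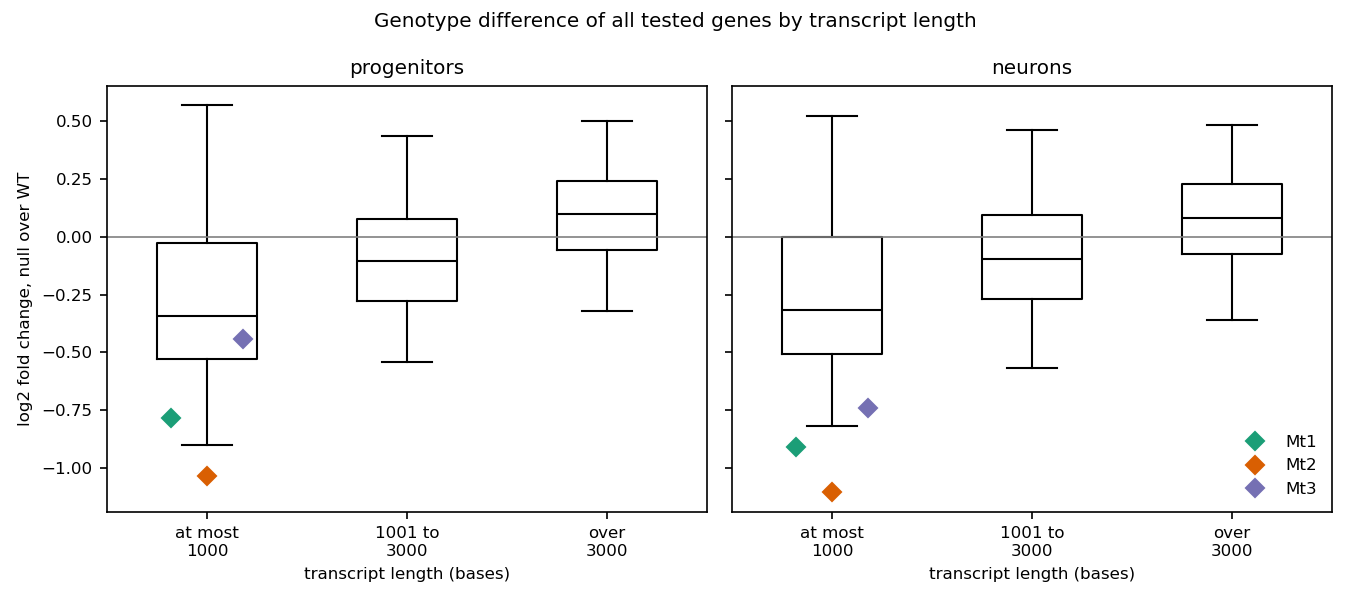
Log2 fold change of null against WT over all genes tested, by transcript length, in progenitors and neurons, with boxes at the quartiles, whiskers from the 5th to the 95th percentile and the 3 members as diamonds. The median box moves from -0.34 in the shortest to 0.10 in the longest class in progenitors, and Mt2, at -1.03, lies lowest of the members.

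Markers of Mt1-rich cells were also compared, as they could enter as doublets or free RNA. In progenitors 8 microglia markers summed to 2.42 to 3.77 CPM in null, against 1.55 to 2.18 CPM in WT, and 8 erythroid markers to 73.8 to 455 CPM in null, against 83.4 to 1138 CPM in WT. The 7 endothelial markers summed to 6.60 to 8.56 CPM in null, against 9.27 to 11.3 CPM in WT, and the 6 pericyte markers to 5.67 to 6.69 and 7.21 to 8.49 CPM. Pallial markers, 6 genes, differed most, at 12.2 to 12.7 CPM in null progenitors and 0.680 to 0.722 CPM in WT progenitors, with up to 4 of them at 0 in a WT library, and at 2.36 to 3.005 CPM and 0.722 to 2.23 CPM in neurons. Basal progenitor markers, 6 genes, were 1162 to 1203 CPM in null and 992 to 1049 CPM in WT progenitors, and the MGE markers 1965 to 1973 CPM and 1684 to 1741 CPM. Microglia markers in progenitors were thus higher in both null libraries, as were 49.9% of all genes tested. Endothelial and pericyte markers were lower in both, as were 11.4% of genes. At most 1 gene of the microglia, endothelial and pericyte lists was at 0 in a library. These lists lay in the same order in neurons, with 2.31 to 2.75 and 1.51 to 2.09 CPM for microglia markers and 3.51 to 7.42 and 8.53 to 13.3 CPM for endothelial markers. Of all genes tested in neurons 41.8% were higher and 13.7% lower in both null libraries. Oligodendrocyte precursor markers, 6 genes, were higher in null in both classes, at 119 to 123 CPM against 98.4 to 106 CPM in progenitors and 18.995 to 21.5 CPM against 14.9 to 17.99 CPM in neurons. Progenitor markers, 10 genes, were higher in null too. They summed to 6071 to 6153 CPM against 5284 to 5399 CPM in progenitors and 1188 to 1191 CPM against 911 to 966 CPM in neurons. Fibroblast markers, 6 genes, were higher in null progenitors (1.66 to 1.76 against 0.944 to 1.02 CPM) and lower in null neurons (0.917 to 1.48 against 1.97 to 2.37 CPM). The part of RNA from vessels, fibroblasts, glial precursors, pallial cells, basal progenitors or other progenitors in the result was not tested.

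The other genes of metal handling were read from lists. Of 20 genes of metal response and zinc handling, MTF-1 itself (Mtf1) and members of the Slc30 and Slc39 transporter families, 18 were tested in each class and 0 passed. Their median log2 fold change was 0.05 in progenitors and 0.06 in neurons, against -0.003 over all genes in progenitors. By an unadjusted p under 0.05 there was 1 gene higher and 0 lower in each class, where 19.5% of all genes in progenitors and 17.0% in neurons had such a p. Slc30a10, at a level near the floor, had 1.87 and 2.06 CPM in null progenitors, against 0.611 and 0.476 CPM in WT (log2 fold change 1.63, edgeR adjusted p = 0.0649). Slc30a7, which loads zinc into the secretory pathway, had a log2 fold change of 0.44 in neurons (edgeR adjusted p = 0.209). Mtf1 had log2 fold changes of 0.15 in progenitors and -0.04 in neurons. The exporter gene Slc30a1, another known MTF-1 target, had 0.07 and -0.31, and neither gene passed the test.

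Of 10 copper handling genes 9 were tested, and 2 passed in progenitors, both lower in null, where 0.608% of all genes were lower. Both calls were lost without the highest doublet scores, with equal cells per cluster, without cluster 8, without the radial glia-like clusters and cluster 8, with cluster 23, in every UMI bin and without WT replicate 1, and at least 1 of them without WT replicate 2. Atox1, the cytosolic copper chaperone that hands copper to the secretory pathway, was 109 and 120 CPM in null progenitors, against 162 and 154 CPM in WT. Its log2 fold change was -0.66 ± 0.10 (SE, edgeR adjusted p = 0.0418). Cox17, a copper chaperone for cytochrome c oxidase, was 80.9 and 94.9 CPM in null progenitors, against 120 and 119 CPM in WT (log2 fold change -0.64, edgeR adjusted p = 0.0451). In neurons 0 of 9 passed, with adjusted p = 0.0641 for Atox1 and 0.0690 for Cox17. The list had a median log2 fold change of -0.16 in progenitors and -0.08 in neurons, and the Atox1 transcript, with 541 bases, is as short as those of the metallothioneins, while that of Cox17 has 3690.

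As reported, lists of other known inducers of metallothioneins held no gene past the test in either class. That count moved with the method. Over these lists and those of metal handling together, 2 genes passed in progenitors and 0 in neurons as reported. They were 7 and 6 with no filter on low counts and 4 and 4 in DESeq2, and they also rose without either null library. Of 12 glucocorticoid-responsive genes 11 were tested in progenitors and 10 in neurons, with medians of -0.07 and -0.03, and an unadjusted p under 0.05 was found for 0 of them in progenitors and 1 in neurons, beside 19.5% and 17.0% of all genes. Of 18 hypoxia-responsive genes 15 and 13 were tested, with medians of -0.18 and -0.16, and 2 were lower in each class by an unadjusted p under 0.05, where 10.9% and 9.96% of all genes were. Those 2 were Ankrd37, at -0.70 in progenitors (edgeR adjusted p = 0.0795) and -0.72 in neurons (adjusted p = 0.0641), and the mitochondrial gene Higd1a, at -0.59 (adjusted p = 0.0937) and -0.64 (adjusted p = 0.0985).

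Of 13 genes of oxidative stress and the factor Nrf2, 13 and 12 were tested, with medians of -0.19 and -0.17, and 3 were lower in each class by an unadjusted p under 0.05, again beside 10.9% and 9.96% of all genes, while G6pdx, an enzyme that makes NADPH, was higher in null neurons by that measure (log2 fold change 0.29, edgeR adjusted p = 0.263). Txn1, thioredoxin, had -0.55 in progenitors (edgeR adjusted p = 0.128), and the cystine carrier gene Slc7a11 had -0.83 in neurons (adjusted p = 0.131). Txnrd1, thioredoxin reductase, had -0.28 in progenitors (adjusted p = 0.226).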

How the data were processed

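The deposited matrices hold UMI counts per gene for all barcodes, without normalization. The authors pooled MGE by genotype and aligned reads with Cell Ranger (5.0.1 and GRCm38 in the submitters' processing notes, though the matrix headers name Cell Ranger 4). Gene identifiers matched GENCODE M21 for 99.6% of genes.

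Cells had at least 2000 UMIs, 200 genes and at most 10% mitochondrial UMIs. Seurat 5.3.0 in R 4.3.3 clustered them on 2000 variable genes without the 3 members, with the difference of S and G2M scores regressed out, 49 principal components and resolution 1.4 (29 clusters), named from marker lists. Members, lists and tests were chosen with earlier results of these data known. Scrublet (scanpy 1.11.5) called at most 0.0796% of a library as doublets at its own threshold, so its calls were not used, and an alternative left out the 159 to 417 cells per library with the highest scores.

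UMIs were summed per library and class and tested with edgeR 4.0.16 (filterByExpr, TMM, glmQLFit, glmQLFTest, two-sided, Benjamini-Hochberg adjustment, threshold 0.05), since the study's own test took cells as replicates. DESeq2 1.42.0 was an alternative. The fits were also run on simulated counts with the same spread in both groups, which does not cover null libraries less alike than the WT libraries. CPM used all UMIs of the class in a library. Intervals are exact Poisson or Clopper-Pearson (95%) and, like the limit of 3 counts for a 0, cover counting error only. Transcript length is that of the longest transcript with the best support level. Genes named are the members, St18 and Xist as checks, the 5 genes most like each member over clusters, and from each list those past the threshold or otherwise up to 3 with the smallest p, besides Mtf1, Slc30a1 and G6pdx, chosen after their values were seen. Replicate numbers follow accession order. Python 3.11.15, pandas 2.3.3, scipy 1.17.1 and matplotlib 3.10.9 were used.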

Additional observations from a re-analysis of the deposited data

How the results depend on the processing

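In progenitors the fitted log2 fold change was negative for Mt1 and Mt3 in 21 of 21 alternatives each and for Mt2 in 20 of 20, and in neurons for Mt1 in 15 of 16, Mt2 in 16 of 16 and Mt3 in 18 of 18. The exception was 0.16 for Mt1 in neurons of 8000 to under 16000 UMIs (adjusted p = 0.900). The Mt2 call in progenitors held in 11 of 20 alternatives. It was lost without the highest doublet scores (-0.996), with equal cells per cluster (-1.18), in the UMI bins (-0.31, -0.62, -1.08 and -1.20 from the lowest), without cluster 8 (-1.03), without the radial glia-like clusters and cluster 8 (-1.28) and with cluster 23 (-1.03), with adjusted p from 0.0506 to 0.911. Mt1 in progenitors passed with no filter on low counts (-0.77), in DESeq2 (-0.78) in radial glia-like cells (-0.84) and without 1 library in 3 fits, and Mt3 with no filter (-0.43). In neurons Mt1 (-0.90), Mt2 (-1.10) and Mt3 (-0.73) passed with no filter, Mt3 in DESeq2 (-0.74) and Mt1 with equal cells per cluster (-0.97). DESeq2 gave no adjusted p for Mt2 or for Mt1 in neurons. Leaving out each library in turn gave -1.01 to -0.58 (Mt1), -1.15 to -0.91 (Mt2) and -0.85 to -0.12 (Mt3) in progenitors, and -1.14 to -0.66, -1.45 to -0.79 and -1.10 to -0.43 in neurons. The difference between the classes turned for Mt2 with equal cells (-0.13) and male cells (-0.19) and ranged from -0.071 to 0.24 (Mt1), -0.15 to 0.32 (Mt2) and 0.12 to 0.40 (Mt3) without 1 library, where Mt3 passed without WT replicate 1 (adjusted p = 0.0124).

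Genes called in progenitors, 99 as reported, were 868 with library totals, 173 with RLE, 1219 with no filter, 449 in DESeq2, 4 without the highest doublet scores, 2 with equal cells, 2, 35, 34 and 15 in the UMI bins, 7 without cluster 8, 497 in radial glia-like cells, 2 without them and cluster 8, 6 with cluster 23, and 102 to 4751 without 1 library (4751 without null replicate 1, 2118 without null replicate 2). In neurons the 9 became 173, 626 and 317 with library totals, no filter and DESeq2, 28 with a UMI threshold per library, 35 without the highest doublet scores, 96 with equal cells, 2 in male cells, 3, 47 and 53 in the first 3 bins, and 53 to 3027 without 1 library. The 136 of the difference became 89 with library totals, 22 with equal cells, 23 in male cells and 59 to 203 without 1 library. Library totals moved the median of all genes by 0.19 in progenitors and 0.14 in neurons and the share of calls lower in null from 84.8% to 17.5% and from 55.6% to 25.4%. Free RNA subtracted at 10%, more than the Mt3 of microglia-like cells allowed, moved the progenitor over neuron log2 ratios to 0.92, 1.98 and 3.28 for Mt1, Mt2 and Mt3. The causes of these moves were not tested. The choices that leave out or add clusters 2, 8, 15, 18, 19 or 23 were made after seeing the data. No cluster mixed markers of 2 classes, so leaving such clusters out changed nothing. Mt1 and Mt2 could not be fitted in neurons of at least 16000 UMIs. No paired analysis was possible because the labels carry no replicate numbers.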

Other observations

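Cells of the vessel wall, which formed no cluster of their own, held Mt1 as well. Among all kept cells 29 had UMIs of at least 3 of the 7 endothelial markers, 20 of them in unnamed cluster 23, and their Mt1 was 67.3 CPM (exact 95% interval 48.7 to 90.7 CPM) from 6 cells. Mt2 was 4.70 CPM and Mt3 15.7 CPM in the same cells. The 31 cells with at least 3 of the 6 pericyte markers had 27.8 CPM of Mt1 (16.5 to 43.9 CPM) and 20.1 CPM of Mt3. Cluster 23 as a whole, led by Sparc, Fn1 and Myh9, stood at 17.9 CPM of Mt1 and 55.0 CPM of Mt3. These intervals cover counting error only.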
